A study of Arabidopsis thaliana with 12 samples.

Results

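The mitochondrial genome of Arabidopsis encodes a small part of the respiratory chain, and 15 of its genes, read by 22 probe sets, were followed here on Affymetrix ATH1 GeneChips. A probe set was a member where the probe annotation table paired it with exactly 1 mitochondrial gene whose symbol was *nad*, *cox* or *ccb* plus a number, *cob*, *matR*, *mttB*, 1 of the *atp* genes or *orf* plus a number. These 22 were found among 13513 probe sets paired with 1 gene, which stand for 13356 genes. The rule uses gene symbols and no measured value, though it was set with earlier results of these data known. All 15 names were found in the mitochondrial genome of the RefSeq table. The rule gave 15 probe sets for 8 genes of complex I, 2 for complex IV, 4 for cytochrome *c* maturation and 1 for the maturase *matR*, whereas no probe set carried *cob*, *mttB* or an *atp* symbol alone. A further mitochondrial gene, *orfX*, which RefSeq lists as *mttB*, had a probe set of its own under a symbol outside the rule and is given beside the members. A further 6 probe sets were paired with a mitochondrial gene and a second nuclear-annotated gene, and were not members. Of the members, 4 (*ccb452*, *nad5* probe set 257338, *nad6* and *matR*) carried the ID suffix for probe sets that can match several transcripts. The probe set of *orfX* carried it too.

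The samples were 12 total RNA preparations from whole Arabidopsis seedlings of the Columbia strain, 3 labelled replicates in each of 4 groups. Seedlings of *PtSnRK2.7* line 20 were exposed to salt (200 mM NaCl) or mock-treated, and wild-type seedlings were exposed to the same salt or mock-treated, in each case over 2 days from an age of 7 days. Line 20 is 1 transgenic line, in which a poplar SnRK2 protein kinase is expressed from the CaMV 35S promoter, and the arrays hold wild-type seedlings and no vector control. Mock treatment was the same transfer to Murashige and Skoog plates without NaCl. The methods describe the 3 replicates of a group as biologically independent, and the labels only number them.

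In plant mitochondria, electrons enter the respiratory chain at complex I (NADH dehydrogenase), of which the *nad* genes encode membrane and arm subunits, and leave it at complex IV (cytochrome *c* oxidase), whose catalytic core is made of the *cox1* and *cox2* products. The *ccb* genes, also called *ccm*, encode parts of the machinery that joins heme to *c*-type cytochromes, and *matR* encodes a maturase for group II introns. Several *nad* transcripts, among them *nad1*, are assembled by splicing separate RNAs together in trans, and many transcripts are edited. Mature mitochondrial messengers of plants are largely without stable poly(A) tails, and polyadenylation there marks RNA for decay.

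Each value is a linear MAS5 signal, as the authors deposited it, and the authors had scaled the arrays alike (the 2%-trimmed mean was 500.04 to 500.05 throughout). Signals are compared between groups within a probe set and not between probe sets, since probes differ in how brightly they hybridise. Two-group differences are given as log2 differences with their standard errors from a limma fit over 22746 probe sets, and a member was called where its Benjamini-Hochberg adjusted p over all of them was under 0.05. Of the mitochondrial probe sets, 3 ranked above the median of all probe sets (*ccb382*, *nad4* and *cox1*), and *ccb452* also lay above the 40th percentile. At the other end, 6 members (*nad1* probe sets 257327 and 257329, *nad2*, *nad7*, *ccb203* and *matR*) had a mean under the arrays' 20th percentile in every group and are called low. The 20th percentile lay between signals of 20.6 and 27.8. Replicate arrays of the salt-treated wild-type correlated less well with each other (0.901 to 0.968 on the log2 scale) than those of the other 3 groups (0.977 to 0.987). These correlations cover the 13647 probe sets with a mean log2 signal above the 40th percentile, and so leave out most members. In whole seedlings, fewer cells of a type and less RNA per cell cannot be told apart.

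Salt lowered *ccb382* and *nad4* in both genotypes and raised *cox2* in the overexpressor. In all, 6 of the 22 probe sets were called in the *PtSnRK2.7* overexpressor (2 higher, 4 lower) and 3 in the wild-type (0 higher, 3 lower). Over all 22746 probe sets, 41.1% were called in the overexpressor, 17.1% higher and 24.0% lower, and 39.1% in the wild-type, 17.2% higher and 21.9% lower, so the mitochondrial share was below that background. Most members were dim, and 18 of the 22 lay at or below the 40th percentile, where 19.4% of all probe sets were called in the overexpressor and 16.4% in the wild-type, against 4 and 1 of these 18. The study's limits for salt were stricter, and were read here as a fold above 3 with an adjusted p below 0.01 in the limma fit. The paper's methods name the Benjamini-Hochberg method, and the titles of its gene lists do not say whether their p was adjusted. At these limits, 0 members passed in the overexpressor and 0 in the wild-type, against 6 and 3 without them. The shares of all probe sets that passed were 10.2% and 8.62%. The median salt difference of the members was -0.20 on the log2 scale in the overexpressor and -0.14 in the wild-type, against -0.09 and -0.07 over all probe sets tested. With each array left out in turn, the members' median ran between -0.27 and -0.03 in the overexpressor (nearest 0 without its salt replicate 1) and between -0.32 and -0.08 in the wild-type (farthest from 0 without mock replicate 3, nearest without mock replicate 2). The sign of the salt difference was the same in both genotypes for 17 of 22 members (77.3%), as it was for 77.7% of all probe sets.

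**Figure D1:**
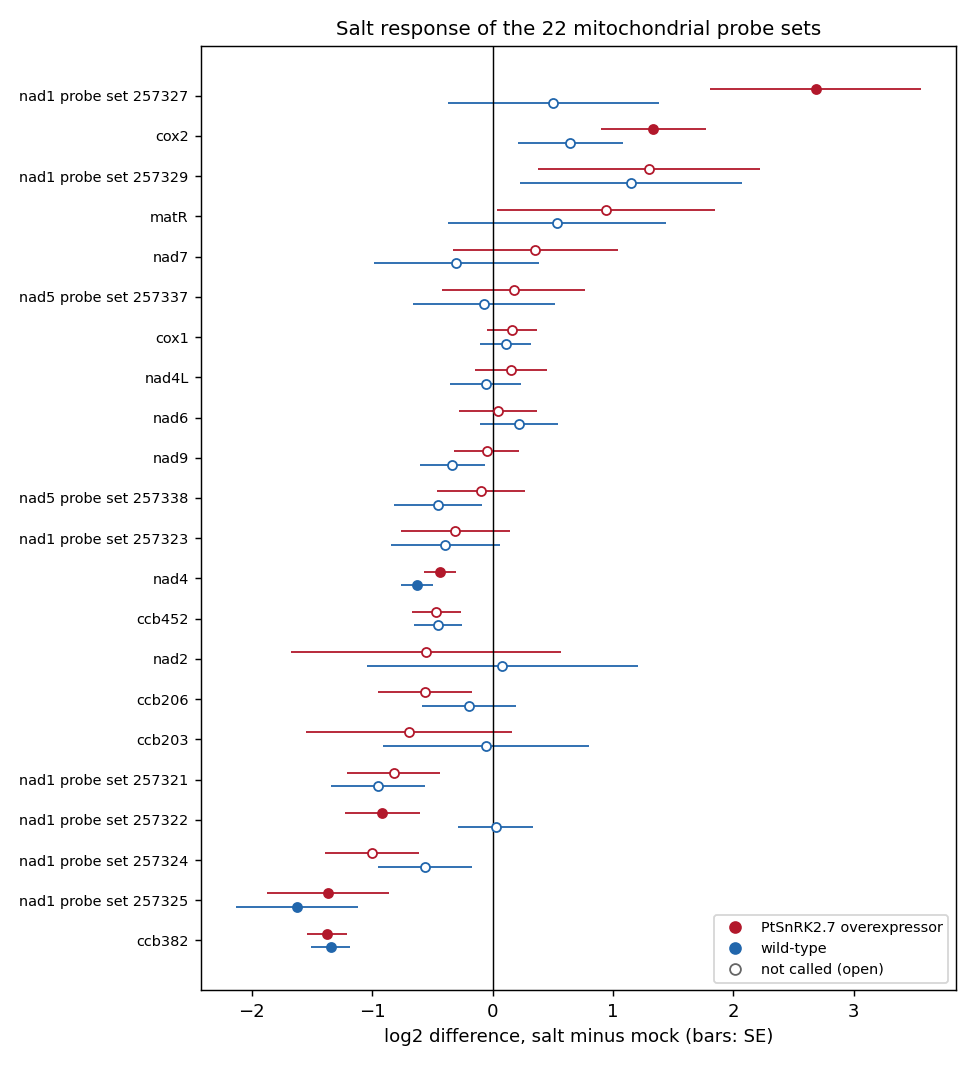
Salt minus mock log2 differences (horizontal axis) of all 22 probe sets, with SE bars, in the *PtSnRK2.7* overexpressor (red, upper point of each row) and the wild-type (blue, lower point), where filled points were called at an adjusted p under 0.05 (limma). *ccb382* stands at -1.37 in the overexpressor and -1.35 in the wild-type with short bars, while low-signal members such as *nad2* have bars wider than their differences.

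The cytochrome *c* maturation genes held the clearest change. *ccb382* (probe set 244912_at), named *ccmFN1* in RefSeq and encoding a part of the heme ligation step, gave signals of 323, 285 and 345 in salt-treated overexpressor seedlings, against 970, 853 and 665 in mock-treated overexpressor seedlings. In the wild-type it gave 524, 588 and 522 after salt, against 1118, 1675 and 1412 after mock treatment. None of the 4 groups overlapped with any other, and the order from lowest to highest was salt-treated overexpressor, salt-treated wild-type, mock-treated overexpressor, mock-treated wild-type. The salt difference was -1.37 (SE 0.16, adjusted p = 3.9e-05, limma) in the overexpressor, a 2.59-fold fall, and -1.35 (SE 0.16, adjusted p = 5.8e-05, limma) in the wild-type, a 2.54-fold fall. Leaving out any of the 12 arrays kept both calls, with values of -1.52 to -1.25 in the overexpressor and -1.50 to -1.21 in the wild-type.

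*ccb452* (*ccmFC*), another part of the heme ligation machinery, had signals of 99.5, 83.8 and 79.7 in salt-treated overexpressor seedlings, against 111, 125 and 127 in the mock-treated ones. The groups did not overlap, but the difference of -0.47 (SE 0.20) had an adjusted p of 0.084 (limma) and was not called. In the wild-type, signals of 95.8, 115 and 96.7 after salt stood against 112, 168 and 145 after mock treatment, with overlap, and the difference was -0.45 (SE 0.20, adjusted p = 0.096, limma). *ccb206* (*ccmB*), a subunit of a heme-related transporter, differed by -0.56 (SE 0.39) in the overexpressor and -0.20 (SE 0.39) in the wild-type, and *ccb203* (*ccmFN2*) by -0.70 (SE 0.86) and -0.05 (SE 0.86). Neither was called in either genotype, and *ccb203* was a low member. All 4 maturation genes thus had negative salt differences in both genotypes, with *ccb382* alone past the test in the fit over all 22746 probe sets. The wild-type value of *ccb203* lay well within its SE, so its sign carries little information. Over all 22746 probe sets, 12459 had a negative salt difference in the overexpressor and 12168 in the wild-type. Of the nuclear partners of this pathway, only *CCMH*, out of 3 listed genes, had a probe set paired with it alone, and its differences of -0.50 (SE 0.25) in the overexpressor and -0.40 (SE 0.25) in the wild-type were not called.

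**Figure D2:**
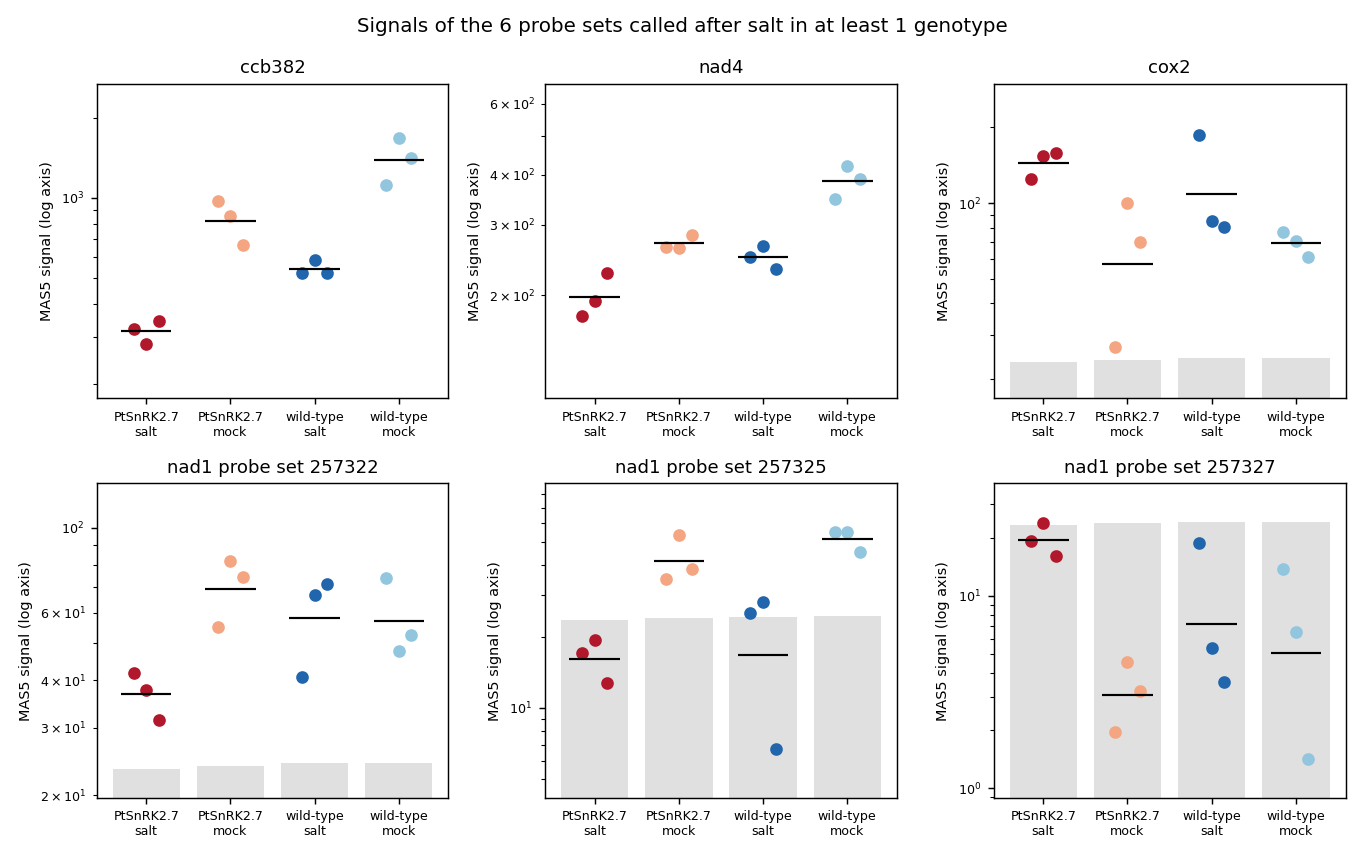
MAS5 signals (log axis) on each array, 3 points a group, of the 6 probe sets called after salt in at least 1 genotype; black lines are geometric means, and the grey area reaches up to the mean 20th percentile of that group's arrays (outside the plotted range for *ccb382* and *nad4*). The 4 groups of *ccb382* do not overlap, and *nad1* probe set 257327 lies near or under the grey edge on every array.

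Among complex I genes, *nad4* (probe set 244929_at), a subunit of the proton-pumping membrane arm, fell with salt. Its signals were 177, 194 and 228 in salt-treated overexpressor seedlings, against 264, 262 and 282 in mock-treated ones. In the wild-type they were 250, 266 and 233 after salt, against 348, 421 and 390 after mock treatment. Salt and mock arrays did not overlap in either genotype. The difference was -0.44 (SE 0.13, adjusted p = 0.018, limma) in the overexpressor and -0.63 (SE 0.13, adjusted p = 0.0024, limma) in the wild-type. The wild-type call held with each array left out. The overexpressor call was lost without salt replicate 1, salt replicate 2 or mock replicate 3 of that line, over a range of -0.54 to -0.36, and under quantile normalization (-0.33, adjusted p = 0.065, limma) and median centring (-0.30, adjusted p = 0.10, limma).

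In the RefSeq order of protein-coding genes, *nad4* lies between *ccmFC* (*ccb452*) and *mttB*. *mttB* was read by the probe set named *orfX*, which differed by 0.00 (SE 0.24) with salt in the overexpressor and by 0.02 (SE 0.24) in the wild-type. So the 3 neighbouring genes had salt differences of -0.47, -0.44 and 0.00 in the overexpressor and -0.45, -0.63 and 0.02 in the wild-type. *ccmFN1* (*ccb382*) lies between *ccmC* and *cox3*, neither of which had a probe set of its own.

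*nad1*, another membrane subunit of complex I, was read by 7 probe sets, and these did not move as one. Which part of the gene each reads was not given in the sources used here. Probe set 257325 had signals of 17.1, 19.3 and 12.7 in salt-treated overexpressor seedlings, against 35.0, 53.4 and 38.5 in mock-treated ones. In the wild-type it had 25.1, 28.1 and 6.68 after salt, against 55.0, 55.3 and 45.6 after mock treatment. No salt array reached a mock array in either genotype. The salt difference was -1.37 (SE 0.51, adjusted p = 0.047, limma) in the overexpressor and -1.63 (SE 0.51, adjusted p = 0.022, limma) in the wild-type. In the overexpressor the call was lost on leaving out any of 9 of the 12 arrays, namely all but the 3 salt-treated wild-type ones (values of -1.50 to -1.19, adjusted p of 0.0062 to 0.14, limma), and the salt-treated signals lay under the 20th percentile. In the wild-type it was lost without salt replicate 3, mock replicate 1 or mock replicate 2, and the difference was -0.96 without salt replicate 3.

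Probe set 257322 of *nad1* had signals of 41.7, 37.8 and 31.5 in salt-treated overexpressor seedlings, against 54.9, 81.7 and 74.2 in mock-treated ones. Those groups did not overlap, and the difference was -0.92 (SE 0.31, adjusted p = 0.032, limma). In the wild-type, 40.8, 66.9 and 71.3 after salt overlapped with 73.9, 47.6 and 52.5 after mock treatment, a difference of 0.03 (SE 0.31). The overexpressor call was lost without salt replicate 2, salt replicate 3, mock replicate 2 or mock replicate 3 of that line, over a range of -1.08 to -0.80. The difference between the 2 salt responses was -0.94 (SE 0.44, adjusted p = 0.42, limma), which did not pass.

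Probe set 257327 of *nad1* went the other way and was a low member. Its signals were 19.4, 24.1 and 16.2 in salt-treated overexpressor seedlings, against 1.95, 4.56 and 3.22 in mock-treated ones. In the wild-type, 18.9, 5.38 and 3.58 after salt overlapped with 13.8, 6.48 and 1.43 after mock treatment. Of its 12 arrays, 11 lay under their 20th percentile. The overexpressor difference of 2.68 (SE 0.88, adjusted p = 0.026, limma) became 0.05 (adjusted p = 0.88, limma) once signals were raised to a floor at that percentile, and the call was lost without any 1 of the 3 salt arrays, mock replicate 1 or mock replicate 3 of that line.

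Of the other 4 *nad1* probe sets, none was called. Probe set 257321 had signals of 19.8, 34.6 and 53.2 in salt-treated overexpressor seedlings and 51.0, 46.7 and 84.9 in mock-treated ones, with overlap, and 37.9, 37.9 and 29.4 in salt-treated wild-type seedlings and 83.2, 54.0 and 68.3 in mock-treated ones, without overlap. Its differences were -0.82 (SE 0.39, adjusted p = 0.11, limma) in the overexpressor and -0.95 (SE 0.39, adjusted p = 0.071, limma) in the wild-type. Probe set 257324 had 36.6, 28.6 and 52.2 after salt, against 92.5, 61.5 and 77.3 after mock treatment, in the overexpressor, a difference of -1.0 (SE 0.39, adjusted p = 0.058, limma) between groups that did not overlap. In the wild-type it differed by -0.56 (SE 0.39), and by -0.13 without salt replicate 3. Probe sets 257323 and 257329 differed by -0.31 (SE 0.45) and 1.30 (SE 0.92) in the overexpressor, and by -0.39 (SE 0.45) and 1.15 (SE 0.92) in the wild-type. Over the 7 probe sets, salt differences thus ran between -1.37 and 2.68 in the overexpressor and between -1.63 and 1.15 in the wild-type, and the 2 low ones, 257327 and 257329, were those with positive values in both genotypes, though the wild-type value of 257327 was -0.40 without mock replicate 3.

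**Figure D3:**
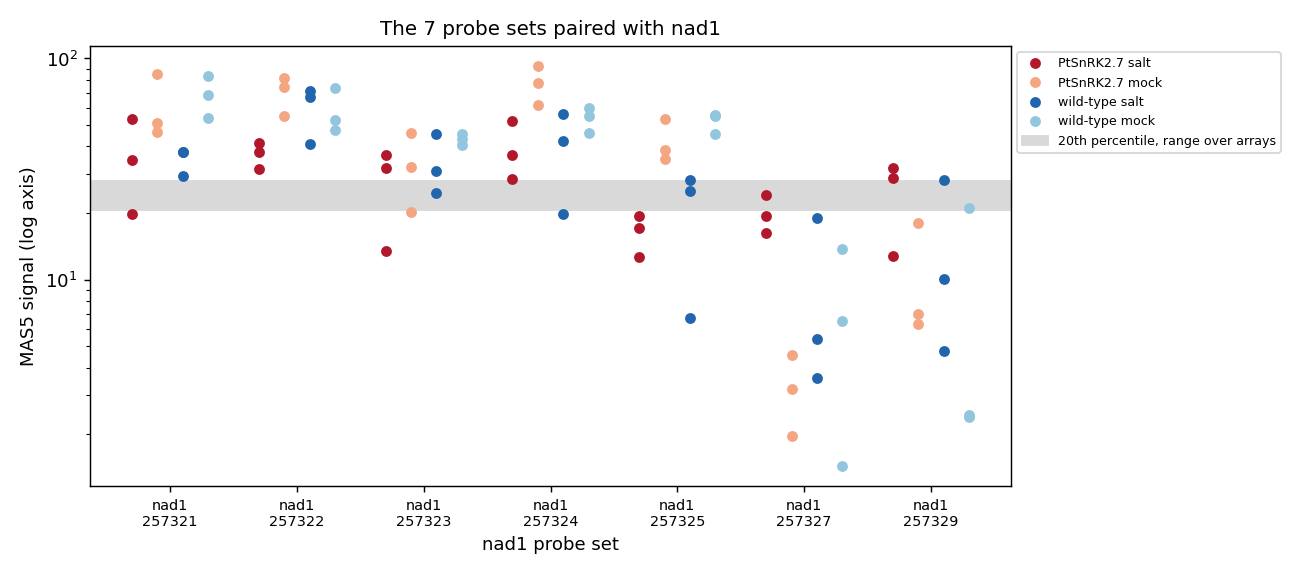
MAS5 signals (log axis) on each array of the 7 probe sets paired with *nad1*, with the 4 groups side by side from the salt-treated *PtSnRK2.7* overexpressor (left) to the mock-treated wild-type (right); the grey band is the range of the arrays' 20th percentiles, 20.6 to 27.8. Probe set 257325 is lower after salt on every array of both genotypes, and 257327 lies within or under the band on all 12 arrays.

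The remaining complex I genes showed no call after salt. *nad4L*, a small membrane subunit, had signals of 51.7, 40.9 and 47.4 in salt-treated overexpressor seedlings, against 36.7, 33.7 and 59.0 in mock-treated ones, and of 68.1, 45.5 and 55.7 in salt-treated wild-type seedlings, against 53.9, 57.8 and 62.6 in mock-treated ones. The groups overlapped, and the differences were 0.15 (95% interval -0.49 to 0.80) in the overexpressor and -0.06 (-0.70 to 0.59) in the wild-type. *nad9*, a subunit of the peripheral arm, differed by -0.05 (-0.64 to 0.54) and -0.34 (-0.92 to 0.25), and *nad6* by 0.05 (-0.65 to 0.74) and 0.22 (-0.48 to 0.92), in the same order of genotypes. The 2 probe sets of *nad5* differed by 0.18 (SE 0.59) and -0.10 (SE 0.36) in the overexpressor and by -0.07 (SE 0.59) and -0.46 (SE 0.36) in the wild-type. The low members *nad2* and *nad7* differed by -0.55 (SE 1.12) and 0.35 (SE 0.69) in the overexpressor, and by 0.08 (SE 1.12) and -0.30 (SE 0.69) in the wild-type, intervals that leave room for changes of either sign.

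Of the complex IV genes, *cox2* was called higher after salt in the overexpressor and *cox1* was not called. *cox2* (probe set 244950_at), which carries the copper site that takes electrons from cytochrome *c*, gave signals of 125, 153 and 158 in salt-treated overexpressor seedlings, against 27.0, 100 and 70.0 in mock-treated ones. In the wild-type it gave 186, 84.9 and 80.3 after salt, against 76.8, 70.6 and 61.1 after mock treatment. In both genotypes every salt array lay above every mock array, though narrowly so in the wild-type, where salt replicate 1 stood far above the other arrays. The difference was 1.33 (SE 0.44, adjusted p = 0.026, limma) in the overexpressor and 0.65 (SE 0.44, adjusted p = 0.28, limma) in the wild-type, where it was 0.26 without salt replicate 1. The overexpressor call was lost without salt replicate 2, salt replicate 3 or mock replicate 1 of that line, and the difference was 0.79 without mock replicate 1, whose signal of 27.0 was the lowest. The difference between the 2 responses was 0.69 (95% interval -0.65 to 2.02) and was not called. *cox2* lies beside *ccmB* (*ccb206*) in the RefSeq order, and that neighbour had differences of -0.56 and -0.20.

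*cox1*, which holds the heme and copper centre where oxygen is reduced, gave 301, 252 and 264 in salt-treated overexpressor seedlings, against 271, 266 and 198 in mock-treated ones. In the wild-type it gave 381, 251 and 219 after salt, against 213, 279 and 281 after mock treatment. All groups overlapped, and the differences were 0.16 (95% interval -0.29 to 0.62) in the overexpressor and 0.11 (-0.35 to 0.56) in the wild-type, where it was -0.13 without salt replicate 1. Of the 4 members above the 40th percentile, *ccb382*, *nad4* and *ccb452* had negative salt differences in both genotypes. *matR* gave 1.90, 1.71 and 13.1 in salt-treated overexpressor seedlings, against 1.45, 2.01 and 2.07 in mock-treated ones, and 2.53, 2.42 and 1.62 in salt-treated wild-type seedlings, against 1.46, 1.68 and 1.32 in mock-treated ones. It lay under the 20th percentile on all 12 arrays, where signals carry little information, and its differences of 0.94 (SE 0.91) in the overexpressor and 0.54 (SE 0.91) in the wild-type were not called. Without salt replicate 3, whose signal was 13.1, the overexpressor difference was -0.01.

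**Figure D4:**
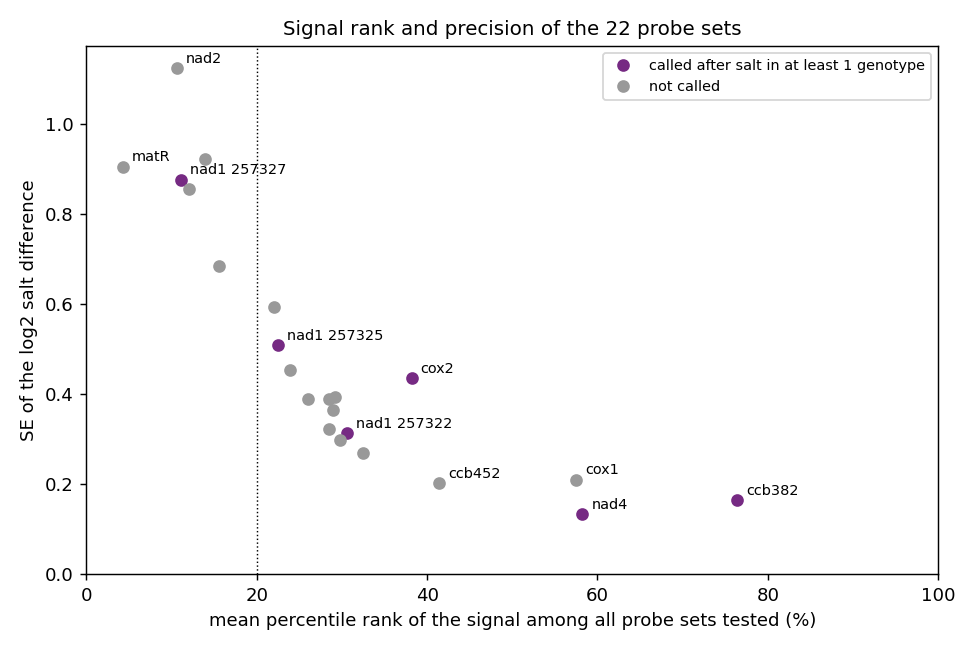
Mean percentile rank of each member's signal among all probe sets tested (horizontal axis, %) against the SE of its log2 salt difference (vertical axis); purple points were called after salt in at least 1 genotype, and the dotted line marks the 20th percentile. SEs ran between 0.13 for *nad4* and 1.12 for *nad2*, and the least bright members had the widest errors.

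Between the genotypes, *ccb382* was the only member called. Under salt its signals in the overexpressor lay below all those of the wild-type, with a difference of -0.78 (SE 0.16, adjusted p = 0.034, limma), or 1.72-fold lower. This was 1 call of 22, all of it in the lower direction, over a background of 2.01% of all probe sets (1.23% higher, 0.783% lower). The call was lost without any 1 of the 3 salt arrays or mock replicate 2 of the overexpressor, salt replicate 3 or mock replicate 3 of the wild-type, with values between -0.84 and -0.70 (adjusted p of 0.026 to 0.12, limma). It was also lost in the fit of only the 2 groups compared (adjusted p = 0.17, limma) and without the intensity trend (adjusted p = 0.094, limma). With a fold limit of 2 added, which the study applied between genotypes under mock treatment and which was used here under salt too, 0 members passed under salt and 0 under mock treatment, over 0.514% and 0.356% of all probe sets.

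Under mock treatment, 0 members were called at the adjusted p and 2 had an unadjusted p under 0.05 (limma), over a background of 0.563% and 9.30% of all probe sets. The 2 were *ccb382*, at -0.75 (SE 0.16, adjusted p = 0.076, limma), and *nad4*, at -0.52 (SE 0.13, adjusted p = 0.16, limma), both lower in the overexpressor on every array. With array quality weights both were called (adjusted p of 0.017 and 0.049, limma), and without salt replicate 2 of the wild-type *ccb382* was (adjusted p = 0.035, limma). Under salt, *nad4* differed by -0.33 (SE 0.13, adjusted p = 0.22, limma), again without overlap. *ccb382* and *nad4* were the 2 members whose arrays were lower without overlap in all of the 4 two-group comparisons, a pattern held by 100 of 22746 probe sets (0.440%). These comparisons share arrays, so they are not independent of each other.

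The salt responses themselves did not differ detectably between the genotypes. In the interaction of genotype and salt, 0 members were called and 0 had an unadjusted p under 0.05 (limma), over a background of 0.299% and 12.1% of all probe sets. For *ccb382* the difference of the responses was -0.03 (95% interval -0.53 to 0.48), and for *nad4* it was 0.19 (-0.22 to 0.60). For the low *nad1* probe set 257327 it was 2.18 (-0.51 to 4.87).

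Other genes tied to organelles were counted on the same arrays, to be read beside the 41.1% of all probe sets called after salt in the overexpressor and 39.1% in the wild-type. A listed gene was counted only where the annotation paired a probe set with it alone, and the other listed genes were not analysed here. Of 69 probe sets for plastid-encoded genes, 56 were lower and 1 higher after salt in the overexpressor (median -1.12), and 49 were lower and 0 higher in the wild-type (median -0.90). A list of 41 nuclear genes for the respiratory chain, ATP synthase and assembly of complex IV had 16 with such a probe set. Of these 16, 6 were higher and 1 lower in the overexpressor, and 5 higher and 0 lower in the wild-type. Among them, *CYTC-2*, one of the genes for cytochrome *c*, rose by 1.22 (SE 0.21) in the overexpressor and 1.12 (SE 0.21) in the wild-type, and *SDH2-1*, for an iron-sulfur subunit of complex II, by 0.71 (SE 0.18) and 0.80 (SE 0.18). *AT3G15640*, for a nuclear subunit of complex IV, fell by 0.65 (SE 0.12) in the overexpressor. In the wild-type, where 0 of the 16 were called lower, the lowest difference of the list was -0.31.

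Of 7 genes for alternative respiration and mitochondrial stress, out of 20 listed, 5 were higher and 2 lower in the overexpressor, and 4 higher and 1 lower in the wild-type. *NDB2*, an alternative NADH dehydrogenase that passes electrons around complex I, rose by 2.29 (SE 0.27) in the overexpressor and 2.55 (SE 0.27) in the wild-type. *AT2G21640*, known as *UPOX* and used as a marker of oxidative stress in mitochondria, rose by 4.39 (SE 0.28) and 2.92 (SE 0.28). Under mock treatment, this gene differed by -1.65 between overexpressor and wild-type (SE 0.28, adjusted p = 0.022, limma). Of the 7 genes, 2 were called lower and 0 higher in that comparison, over a background of 0.563% of all probe sets. In the interaction of genotype and salt, 0 of the 7 were called. Of 8 factors of organelle RNA and DNA, out of 27 listed, 1 was called after salt. This was the probe set of *AT5G14580* (mitochondrial polynucleotide phosphorylase, which trims and degrades RNA). It fell by 1.13 (SE 0.33, adjusted p = 0.014, limma) in salt-treated overexpressor seedlings and differed by -0.38 (SE 0.33, adjusted p = 0.40, limma) in the wild-type. In the interaction, 0 of the 8 were called and 0 had an unadjusted p under 0.05 (limma).

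Of the 6 probe sets shared between a mitochondrial gene and a second gene, 1 was called. The one paired with *cox3* and *AT2G07687* was higher by 0.82 (SE 0.25, adjusted p = 0.018, limma) after salt in the overexpressor. It differed by -0.15 (SE 0.25) in the wild-type, and its signal cannot be assigned to either gene. In the interaction of genotype and salt, 0 of the 6 were called and 1 had an unadjusted p under 0.05 (limma). The other 5, which included those paired with *atp1*, *atp9* and *cob*, differed by -0.71 to -0.01 over both genotypes and were not called.

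Control probe sets moved with salt as well, and their part in the results was not tested. The log2 ratio of 3′ to 5′ signal of ubiquitin lay at 1.40 to 1.61 in salt-treated overexpressor seedlings, against 1.89 to 2.14 in mock-treated ones, and at 1.52 to 1.82 in salt-treated wild-type seedlings, against 1.99 to 2.02 in mock-treated ones. The same ratios of GAPDH and actin overlapped between salt and mock in both genotypes. The 25S ribosomal RNA signal was 8109 to 10323 in salt-treated overexpressor seedlings, against 11422 to 15012 in mock-treated ones, and 10053 to 11973 in salt-treated wild-type seedlings, against 9346 to 11863 in mock-treated ones. The 5S ribosomal RNA signal went the other way in the overexpressor, with 68.9 to 74.5 after salt, against 28.5 to 33.5 after mock treatment, and overlapped in the wild-type, with 30.3 to 51.3 after salt, against 21.1 to 37.4 after mock treatment. Of the tissue markers, 0 of 7 for shoot and 2 of 6 for root had a probe set paired with them alone, so shoot tissue was not checked here. *PYK10*, a root and hypocotyl glucosidase, averaged between 12876 and 15838 in the 4 groups, and *XTH20* differed by -1.45 (SE 0.33, called) after salt in the overexpressor. After salt in the wild-type, 0 of these 2 root markers were called. Of 4 pollen markers, 2 had a probe set paired with them alone. *ACT12* averaged between 1.14 and 5.82, and *AT5G10130* between 57.5 and 569, lower after salt in both genotypes (both called).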

How the data were processed

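Total RNA of 12 seedling samples was hybridised to ATH1 GeneChips. The authors turned the probe intensity readings into MAS5 signals, deposited as linear intensity values, 1 per probe set and array. Detection calls and scans were not used here, and no per-array column was left out. The 64 Affymetrix controls were set aside, and log2 signals of 22746 probe sets were fitted as 4 group means with limma 3.58.1 in R 4.3.3, with moderated variances following an intensity trend. Tests were two-sided, with Benjamini-Hochberg adjustment over all 22746, and the fit was tested on simulated data. The 3 arrays a group limit the precision of every value.

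Genes came from the probe annotation table (503 probe sets had several genes and 8730 none). Gene order came from the start positions in the RefSeq table, and distances and strands were not used. Signals are printed on every array for the brightest member of each role and up to 4 members with the smallest adjusted p in each comparison, and for *ccb452*, added after its values were seen. The members and lists were chosen with earlier results of these data known. The fit was repeated with each array left out, on quantile-normalized or median-centred signals, with a 20th-percentile floor or a 40th-percentile filter, without the trend, with array weights, within the groups compared, with replicate number as a block, with the methods' t-test and at the study's fold limits.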

Additional observations from a re-analysis of the deposited data

Results flagged for a closer look

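For *nad1* probe set 257327, all 3 overexpressor arrays lay above the wild-type mean after salt and all 3 lay below it after mock treatment. The arrays of the genotypes still overlapped under both treatments. After salt, wild-type replicate 1 gave 18.9 and overexpressor replicate 3 gave 16.2. After mock treatment, wild-type replicate 3 gave 1.43, below every overexpressor array. The difference between the salt responses was 2.18 on the log2 scale. The test of that difference did not pass (adjusted p = 0.52, limma), and 11 of the 12 arrays of this probe set lay under their 20th percentile.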

How the results depend on the processing

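No result changed sign where it had been called. Over the alternatives, called differences of single members kept their direction in 195 of 195 values and their call in 150. The number of members called after salt in the overexpressor, 6, became 3 with quantile normalization, median centring or the methods' t-test, and 0 with the study's limits. With the filter above the 40th percentile, 3 of the 4 members left were called, against 2 of these 4 in the fit over all 22746 probe sets. In the wild-type, 3 became 5 with array weights and 0 with the methods' t-test or the study's limits. With Benjamini-Hochberg adjustment at the study's limits, that t-test passed 0 of all 22746 probe sets in the wild-type and in both genotype comparisons. For that t-test at those limits, 0 is thus not particular to the members. Without the adjustment, 673 probe sets passed in the wild-type and 274 between genotypes under mock treatment. The paper lists genes for both of these comparisons, so the t-test as run here with adjustment did not reproduce its lists. Between genotypes under mock treatment, 0 became 2 with array weights. Under salt, 1 became 0 without the intensity trend, with only the groups compared, with the methods' t-test and with the study's limits. The cause was not tested. At an unadjusted p under 0.01 and a fold above 3, the methods' t-test passed 1 member in the overexpressor, over 1765 of all 22746 probe sets. That member was *nad1* probe set 257327, a low one. After Benjamini-Hochberg adjustment, 0 members and 731 of all probe sets passed there. With the filter, which left 4 members, their median was -0.45 in place of -0.20 in the overexpressor, -0.54 in place of -0.14 in the wild-type, -0.37 in place of -0.21 between genotypes under mock treatment and -0.28 in place of -0.13 under salt.

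Leaving out each array gave 1 to 7 members called in the overexpressor, 2 to 4 in the wild-type, 0 to 1 between genotypes under mock treatment, 0 to 1 under salt and 0 for the interaction. The overexpressor count was 1 without its salt replicate 2, 2 without mock replicate 3, and 3 without salt replicate 1 or mock replicate 1. The genotype count under mock treatment was 1 without salt replicate 2 of the wild-type.

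The labels tie same-numbered arrays by number only, and whether they shared handling was not tested. Over probe sets above the 40th percentile, their deviations from the group means correlated at -0.135 to 0.262. With the replicate number as a block, 0 members were called between genotypes under salt (*ccb382*, adjusted p = 0.061, limma), and the overexpressor call of *nad1* probe set 257322 was lost (adjusted p = 0.054, limma). Signal over background limits most members, since 18 of 22 lay at or below the 40th percentile.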
